A study of Mus musculus with 10 samples.

Results

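Activated_1 is one of 5 states into which the submitters' deposited annotation divides the microglia of the mouse hippocampus. Its members are the cells annotated both as microglia and as Activated_1, which together make up microglial subcluster 6. They numbered 1850 of 21630 microglia (8.55%), of 68914 annotated cells of all classes (2.68%) and of 108266 deposited barcodes (1.71%). The other microglia were 13599 homeostatic cells in 5 subclusters, 3982 Activated_2 cells, 1034 Activated_3 cells and 1165 proliferating cells, so Activated_1 was 26.9% of the 6866 activated microglia. Apoe, Cd74 and Cst7 were the genes given as marks of the state. No gene values were analysed here, so the name was taken as annotated and its markers were not checked.

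Microglia are the resident macrophages of the brain parenchyma, and after injury or contact with foreign protein they leave a homeostatic, surveying programme and enter activated ones. In mouse, Apoe (a lipid carrier), Cd74 (the invariant chain that guides antigen-presenting class II molecules) and Cst7 (an inhibitor of lysosomal cysteine proteases) are known from activated and disease-associated microglia. Neurofilament light chain (NfL) is a structural protein of axons that is released into the extracellular fluid when axons are damaged.

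The study asked what NfL supplied from outside does to brain cells in vivo. Wild-type C57BL/6 male mice, 11 weeks old, received bilateral injections into the hippocampus and the tissue was taken 3 days later. FL-NfL mice received full-length NfL at 1 mg/ml (3 libraries), CC-NfL mice received the coiled-coil form of NfL at 1 mg/ml (3 libraries), and vehicle mice received vehicle alone (4 libraries). Live sorted cells from both hippocampi went into droplet 3′ single-cell RNA libraries. The labels give 2 batches, b1 with libraries 1 and 2 of each group and b2 with library 3 of each group and vehicle library 4. All groups carried an injection, no uninjected or unrelated-protein group is among the samples used here, and the cells are those that survived dissociation and sorting. The libraries held 3150 to 14141 annotated cells and 939 to 4137 microglia each. No barcode was shared between Activated_1 cells of different libraries, and 37 Activated_1 cells shared a barcode with an annotated cell of another library.

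Activated_1 was present in every library, including all 4 after vehicle. There were 136, 153 and 165 Activated_1 cells in FL-NfL libraries 1, 2 and 3, 171, 282 and 335 in CC-NfL libraries 1, 2 and 3, and 47, 99, 226 and 236 in vehicle libraries 1, 2, 3 and 4. As a share of microglia these were 9.95%, 12.7% and 5.85% after FL-NfL, 12.0%, 12.7% and 8.10% after CC-NfL, against 5.01%, 8.03%, 6.83% and 7.93% after vehicle. All CC-NfL libraries lay above all vehicle libraries, although CC-NfL library 3 did so by a small margin, while FL-NfL library 3 lay within the vehicle range. The exact (Clopper-Pearson) 95% intervals of single libraries, which cover counting error only, were 1.69 to 3.84 percentage points wide. Those of CC-NfL library 3 (7.28% to 8.97%) and vehicle library 2 (6.57% to 9.69%) overlapped.

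**Figure D1:**
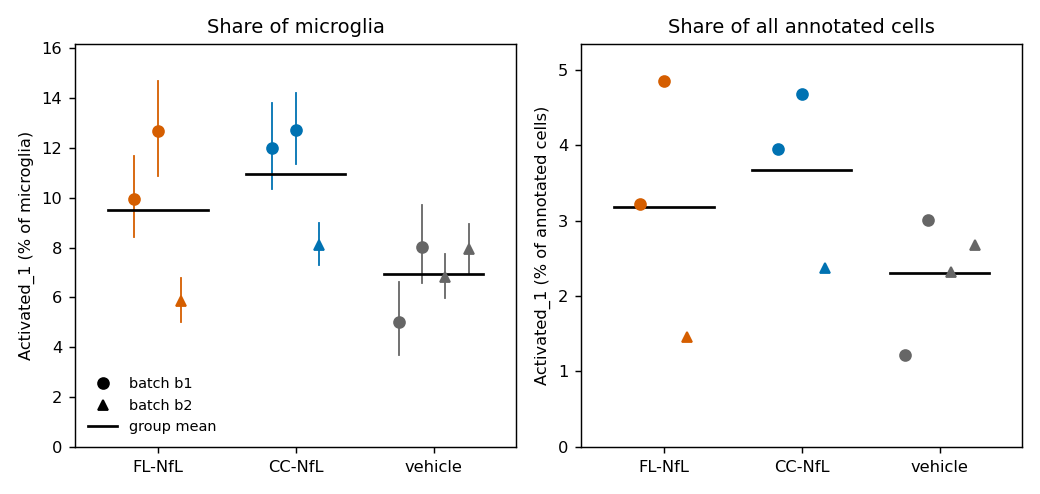
Activated_1 cells as a percentage of microglia (left, with the exact 95% interval of each library as a vertical line) and of all annotated cells (right), with 1 point per library, circles for batch b1, triangles for b2 and horizontal bars for group means. As a share of microglia, FL-NfL libraries ran from 5.85% to 12.7%, CC-NfL libraries from 8.10% to 12.7% and vehicle libraries from 5.01% to 8.03%, and as a share of annotated cells the groups overlapped.

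The mean share of microglia was 9.49% ± 3.44 after FL-NfL (SD, n = 3) and 10.9% ± 2.49 after CC-NfL (SD, n = 3), against 6.95% ± 1.40 after vehicle (SD, n = 4). The means were 1.37 and 1.58 times the vehicle mean for FL-NfL and CC-NfL. In a limma fit to the log2 odds of all 5 states, with group and batch as terms, neither protein passed an adjusted p of 0.05 for Activated_1. The log2 odds ratio against vehicle was 0.38 for FL-NfL (SE 0.49, 95% interval -0.63 to 1.38, adjusted p = 0.560) and 0.65 for CC-NfL (SE 0.49, 95% interval -0.36 to 1.65, adjusted p = 0.208). For both NfL groups together it was 0.51 (SE 0.41, 95% interval -0.34 to 1.37, adjusted p = 0.286), with 5 of 6 NfL libraries above all vehicle libraries. Without vehicle library 1 these limma values were 0.080 for FL-NfL, 0.35 for CC-NfL and 0.21 for both, and without FL-NfL library 3 they were 0.72 for FL-NfL and 0.70 for both. In that fit 0.00% of the 5 states passed for FL-NfL, 40.0% for CC-NfL and 40.0% for both together. For CC-NfL and for both, the states that passed were homeostatic, lower than after vehicle, and Activated_2, higher. Activated_1 was not among the states that passed. A shift of more than 2-fold in the odds in either group lies inside these intervals.

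A two-sided exact permutation test of the percentages gave p = 0.0286 for CC-NfL against vehicle, the smallest that 3 against 4 libraries allow, and 0.0476 after Benjamini-Hochberg adjustment over the 5 states. Of the 5 states, 40.0% had all CC-NfL libraries above all vehicle libraries. When libraries were permuted only within batch the exact p was 0.0556, again the smallest possible, or 0.0926 after adjustment. The same exact permutation test gave 0.229 for FL-NfL and 0.0619 for both NfL groups together. On a centred log ratio scale, which sets each state against the geometric mean of all 5, the differences were -0.014 for FL-NfL, -0.010 for CC-NfL and -0.012 for both, so the direction of the share depended on what it was set against.

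The forms of NfL were also compared with each other at their shared dose and time. FL-NfL minus CC-NfL was -0.27 on the log2 odds scale (SE 0.52, 95% interval -1.34 to 0.80, limma adjusted p = 0.757). The forms were not separated for Activated_1, and the interval includes shifts of more than 2-fold towards CC-NfL. For this contrast 0.00% of the 5 states passed.

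The excess of Activated_1 over vehicle was larger in b1 than in b2. In b1 it averaged 11.3% after FL-NfL and 12.4% after CC-NfL, against 6.52% after vehicle, with 2 libraries in each. In batch b2 the single FL-NfL library had 5.85% and the single CC-NfL library 8.10%, against a mean of 7.38% in 2 vehicle libraries. The difference between either NfL and vehicle was -1.07 in b2 minus b1 on the log2 odds scale (SE 0.63, limma adjusted p = 0.183), so the difference between batches did not pass the test. Outside b1 the excess of Activated_1 over vehicle rests on CC-NfL library 3 alone.

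Shares of microglia must sum to a fixed total, and so must shares of annotated cells. Activated_1 was also taken among all annotated cells, a wider total. It made up 3.22%, 4.86% and 1.46% of annotated cells after FL-NfL, 3.95%, 4.68% and 2.37% after CC-NfL, against 1.21%, 3.01%, 2.32% and 2.68% after vehicle. The groups overlapped, and FL-NfL library 3 was below 3 of the 4 vehicle libraries. The limma log2 odds ratio over 20 cell classes and states was 0.30 for FL-NfL (SE 0.51, adjusted p = 0.930), 0.62 for CC-NfL (SE 0.51, adjusted p = 0.561) and 0.46 for both (SE 0.43, adjusted p = 0.623). In this fit 10.0% of the 20 items passed for FL-NfL, 0.00% for CC-NfL and 10.0% for both. Those that passed were macrophages and other immune cells, each higher than after vehicle. For both NfL groups their log2 odds ratios were 1.93 and 1.68. Without vehicle library 1, which had the lowest value, the log2 odds ratio for both was -0.031.

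Set against the state it bordered most, homeostatic microglia, Activated_1 was more numerous in most NfL libraries. There were 18.1, 22.6 and 8.12 Activated_1 cells per 100 homeostatic cells after FL-NfL, 21.6, 29.8 and 14.5 after CC-NfL, against 5.76, 11.6, 9.46 and 11.6 after vehicle. Every CC-NfL library and FL-NfL libraries 1 and 2 exceeded all vehicle libraries, and FL-NfL library 3 lay among them. Of the 10 pairs of states, 20.0% had all CC-NfL libraries above all vehicle libraries. The limma log2 ratio was 0.61 for FL-NfL (SE 0.43, adjusted p = 0.275), 1.11 for CC-NfL (SE 0.43, adjusted p = 0.0950) and 0.86 for both (SE 0.36, adjusted p = 0.105), none past 0.05 after adjustment over the 10 pairs of states. Without vehicle library 1 it was 0.21 for FL-NfL, 0.70 for CC-NfL and 0.45 for both, and without FL-NfL library 3 it was 1.07 for FL-NfL. FL-NfL minus CC-NfL was -0.50 (SE 0.45, 95% interval -1.52 to 0.53, adjusted p = 0.504).

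Set against Activated_2, the most numerous activated state, Activated_1 was less numerous after NfL. As a share of microglia, both states had higher means after NfL. Activated_2 averaged 22.9% over both NfL groups and 10.6% after vehicle, and Activated_1 averaged 10.2% and 6.95%. There were 45.3, 56.2 and 36.4 Activated_1 cells per 100 Activated_2 cells after FL-NfL, 53.3, 40.1 and 35.9 after CC-NfL, against 102, 68.3, 56.6 and 57.6 after vehicle. All 6 NfL libraries lay below all 4 vehicle libraries, although FL-NfL library 2 and vehicle library 3 were nearly equal. Means were 46.0 ± 9.93 after FL-NfL (SD, n = 3), 43.1 ± 9.05 after CC-NfL (SD, n = 3) and 71.2 ± 21.3 after vehicle (SD, n = 4).

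For both NfL groups together the ratio of Activated_1 to Activated_2 fell by 0.73 on the log2 scale (SE 0.24, 95% interval -1.28 to -0.19, limma adjusted p = 0.0456). Of the 10 pairs of states, 30% passed in this contrast, and 20.0% had all NfL libraries below all vehicle libraries. Every pair that passed held Activated_2. The others were homeostatic to Activated_2 (-1.59, limma adjusted p = 0.0234) and Activated_2 to proliferating cells (0.98, limma adjusted p = 0.0234). The fall against Activated_2 was thus not particular to Activated_1. For the proteins taken singly the ratio differed from vehicle by -0.69 for FL-NfL (SE 0.28, adjusted p = 0.128) and by -0.78 for CC-NfL (SE 0.28, adjusted p = 0.0950), and FL-NfL minus CC-NfL was 0.09 (SE 0.30, 95% interval -0.59 to 0.77, adjusted p = 0.773). In those 3 contrasts 10.0%, 10.0% and 0.00% of the pairs passed.

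The call for both together was narrow. It ended without vehicle library 1 (-0.59, adjusted p = 0.154), vehicle library 3 (-0.75, 0.127) or vehicle library 4 (-0.74, 0.0934). It also ended without FL-NfL library 1 (-0.70, 0.0891), FL-NfL library 2 (-0.77, 0.0844) or FL-NfL library 3 (-0.73, 0.0589). The same held without CC-NfL library 1 (-0.77, 0.0640), CC-NfL library 2 (-0.68, 0.108) or CC-NfL library 3 (-0.77, 0.0663), and it stood without vehicle library 2 (-0.84, 0.0354). The adjusted p was 0.113 with no batch term, 0.181 in b1 alone and 0.0253 in a quasi-binomial model of the cell counts. The direction was the same under all of these. Within b1 the mean was 50.8 after FL-NfL and 46.7 after CC-NfL, against 85.2 after vehicle. Within b2 it was 36.4 after FL-NfL and 35.9 after CC-NfL, against 57.1 after vehicle.

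**Figure D2:**
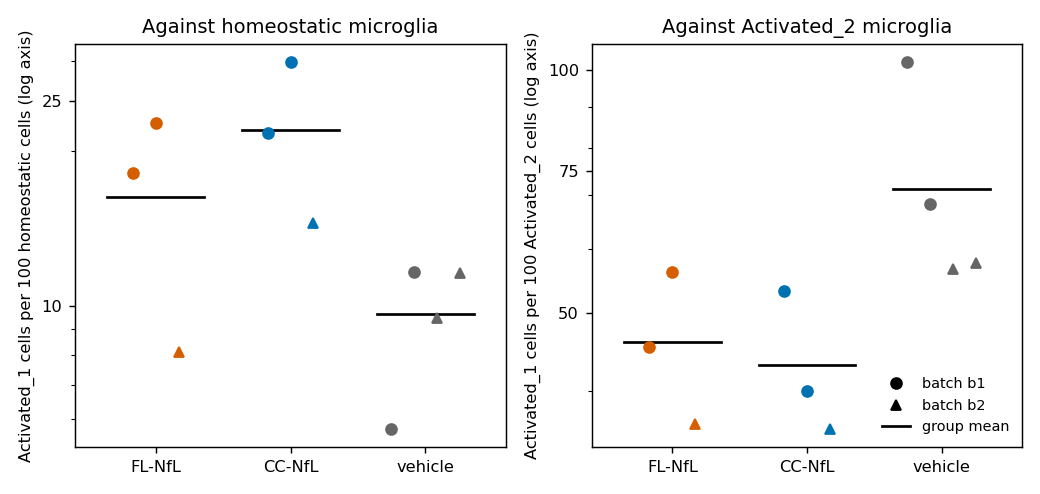
Activated_1 cells per 100 homeostatic cells (left) and per 100 Activated_2 cells (right), with 1 point per library on log axes, circles for batch b1, triangles for b2 and horizontal bars for group means. Against homeostatic cells 5 of 6 NfL libraries lay above all vehicle libraries, and against Activated_2 cells all 6 NfL libraries lay below all 4 vehicle libraries.

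Neither remaining ratio passed. Against Activated_3 the log2 ratio of Activated_1 differed from vehicle by -0.53 for FL-NfL (SE 0.61), -0.34 for CC-NfL (SE 0.61) and -0.43 for both (SE 0.52, limma adjusted p = 0.469), and without vehicle library 1 all 3 had the opposite sign. Against proliferating microglia it differed by 0.53 for FL-NfL (SE 0.32), -0.04 for CC-NfL (SE 0.32) and 0.25 for both (SE 0.27, limma adjusted p = 0.469).

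Among activated microglia alone, Activated_1 made up 25.2%, 32.6% and 22.6% after FL-NfL, 30.9%, 25.9% and 21.9% after CC-NfL, against 48.0%, 31.0%, 29.1% and 31.1% after vehicle. Vehicle library 1 stood far above the others and held only 47 Activated_1 cells. Means were 26.8% ± 5.16 after FL-NfL (SD, n = 3), 26.2% ± 4.53 after CC-NfL (SD, n = 3) and 34.8% ± 8.82 after vehicle (SD, n = 4). The two-sided exact permutation test gave p = 0.286 for FL-NfL, 0.200 for CC-NfL and 0.0476 for both together, the last 0.190 after adjustment over the 4 contrasts. Within batch the exact permutation p for both together was 0.0333, or 0.133 after adjustment. The difference for both together was -8.29 percentage points, and -3.90 points without vehicle library 1 (exact permutation, adjusted p = 0.400). A limma fit over the 3 activated states, added after the data were seen, gave -0.65 on the log2 odds scale for both together (SE 0.22, adjusted p = 0.0300). That call ended without vehicle library 1 (-0.40, adjusted p = 0.0953), vehicle library 3 (-0.68, 0.0532) or vehicle library 4 (-0.63, 0.0689). It also ended without FL-NfL library 1 (-0.58, 0.0594), FL-NfL library 3 (-0.66, 0.0638), CC-NfL library 2 (-0.60, 0.0642) or CC-NfL library 3 (-0.65, 0.0668). The call stood without FL-NfL library 2 (0.0322), CC-NfL library 1 (0.0403) or vehicle library 2 (0.00943).

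Activated_1 was also examined in a second annotation of the same cells, the submitters' clustering of all cells into 32 main clusters. The tests by main cluster, and the fits to Activated_1 cells in and outside main cluster 21, were not planned beforehand. It was the most divided of the 5 states there. Main cluster 21 held 907 of its cells (49.0%), main cluster 1 held 477 (25.8%), main cluster 30 held 415 (22.4%) and main cluster 9 held 51 (2.76%). By comparison the leading main cluster held 64.7% of homeostatic, 75.0% of Activated_2, 99.8% of Activated_3 and 67.5% of proliferating cells. Main cluster 21 was mostly Activated_2 (54.6% of its microglia), main clusters 30 and 1 mostly homeostatic (95.1% and 76.3%), and main cluster 9 mostly proliferating (93.3%). Activated_1 made up 16.6%, 7.87%, 4.48% and 6.06% of the microglia of main clusters 21, 1, 30 and 9.

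Main cluster 21 held a larger part of Activated_1 in most NfL libraries than in any vehicle library. That cluster held 64.7%, 63.4% and 41.8% of Activated_1 cells after FL-NfL, 57.9%, 52.1% and 48.4% after CC-NfL, against 40.4%, 48.5%, 36.3% and 40.7% after vehicle. FL-NfL library 3 and CC-NfL library 3, both of batch b2, lay within the vehicle range, and 4 of 6 NfL libraries lay above it. Over both NfL groups the mean was 54.7% ± 8.93 (SD, n = 6), against 41.5% ± 5.09 after vehicle (SD, n = 4). The two-sided exact permutation p was 0.0286, or 0.114 after adjustment over 16 tests (4 clusters and 4 contrasts). Within batch the exact permutation p was 0.0111, the smallest possible, or 0.0593 after adjustment over the same 16 tests.

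**Figure D3:**
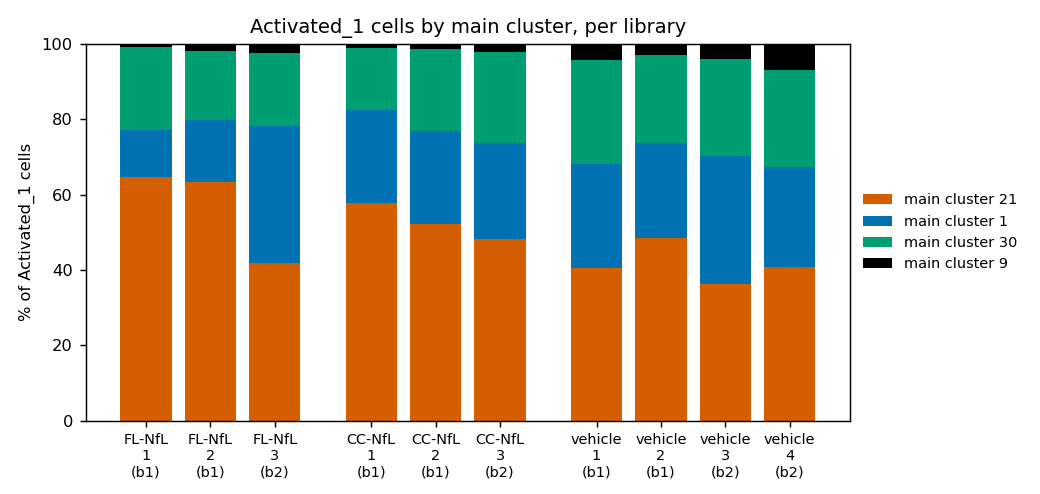
Stacked bars of the percentage of Activated_1 cells lying in main clusters 21, 1, 30 and 9, with 1 bar per library and its batch under it. Main cluster 21 held 41.8% to 64.7% in NfL libraries and 36.3% to 48.5% in vehicle libraries, and main cluster 9, at the top of each bar, held 0.735% to 2.42% in NfL libraries and 3.03% to 6.78% in vehicle libraries.

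The smallest portion of Activated_1, in main cluster 9, was a lower percentage in every NfL library than in any vehicle library. It was 0.735%, 1.96% and 2.42% of Activated_1 cells after FL-NfL, 1.17%, 1.42% and 2.09% after CC-NfL, against 4.26%, 3.03%, 3.98% and 6.78% after vehicle. Of the 4 clusters, 25.0% had all NfL libraries below all vehicle libraries. The two-sided exact permutation p was 0.00476, the smallest possible, and 0.0762 after adjustment over the 16 tests. These percentages stand on 1 to 7 cells in NfL libraries and 2 to 16 in vehicle libraries. In main cluster 30 the mean for both NfL groups was 20.3% ± 2.83 (SD, n = 6), against 25.6% ± 1.82 after vehicle (SD, n = 4), and the exact permutation test gave 0.0190, or 0.114 after adjustment.

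As a share of microglia, the Activated_1 cells in main cluster 21 amounted to 6.44%, 8.04% and 2.45% after FL-NfL, 6.95%, 6.64% and 3.92% after CC-NfL, against 2.02%, 3.89%, 2.48% and 3.22% after vehicle. All CC-NfL libraries exceeded all vehicle libraries, CC-NfL library 3 and vehicle library 2 being nearly equal, and FL-NfL library 3 lay within the vehicle range. For both NfL groups the limma log2 odds ratio was 0.83 for these cells (SE 0.37, adjusted p = 0.0850) and 0.14 for Activated_1 cells outside main cluster 21 (SE 0.32, adjusted p = 0.677). The difference between these portions was not tested.

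On the deposited t-SNE map of microglia, in which cells with like expression lie close together, Activated_1 was the least compact state. Of the 30 nearest microglia of an Activated_1 cell, on average 58.7% were Activated_1, 22.9% homeostatic, 16.9% Activated_2, 0.843% Activated_3 and 0.577% proliferating. Own-state neighbours made up 95.1% for homeostatic, 81.8% for Activated_2, 85.5% for Activated_3 and 91.0% for proliferating cells. At least 15 of 30 neighbours were Activated_1 for 1213 Activated_1 cells (65.6%), all 30 for 113, and none for 43. On the map of all cells, 99.9% of neighbours of Activated_1 cells were microglia, and 24 of 1850 Activated_1 cells had a macrophage among their neighbours. In the other states this held for 5 of 13599 homeostatic, 4 of 3982 Activated_2, 11 of 1034 Activated_3 and 0 of 1165 proliferating cells.

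**Figure D4:**
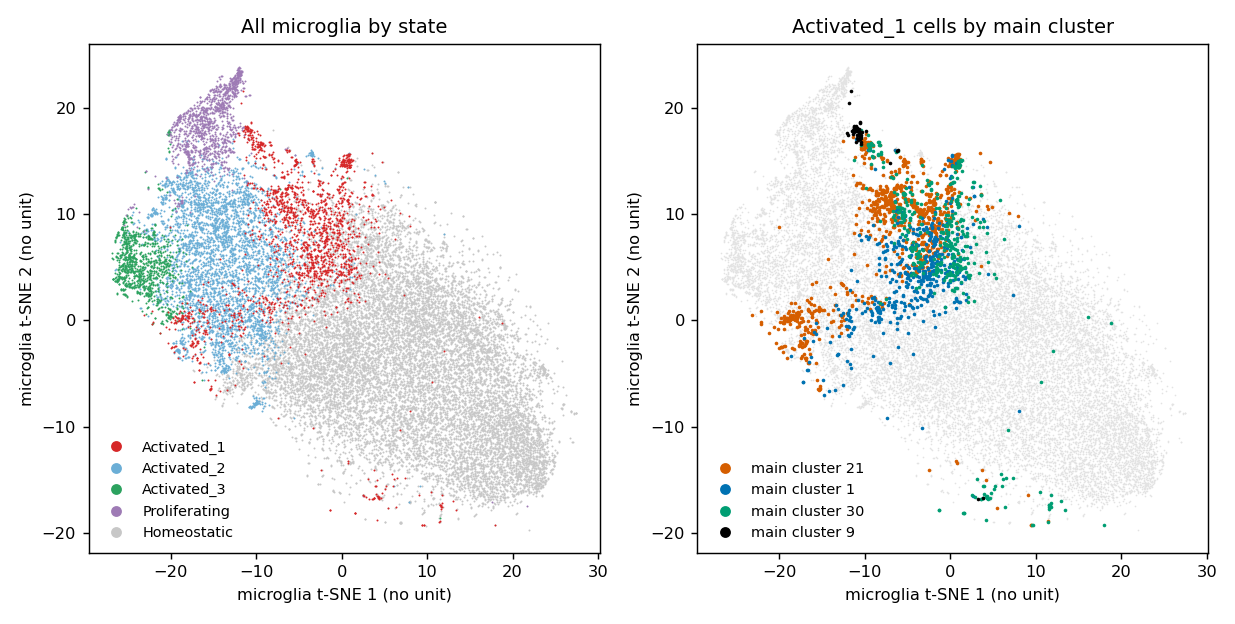
Positions of the 21630 microglia on the deposited t-SNE map of microglia, which has no unit on either axis, with cells coloured by state (left) and the 1850 Activated_1 cells coloured by main cluster over all microglia in grey (right). The body of Activated_1 lies between the homeostatic and Activated_2 cells, the left patch below the Activated_2 and Activated_3 cells, and the upper strip beside the proliferating cells, where most main cluster 9 cells lie.

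Grouping Activated_1 cells by density on the map, a step added after the map was seen and given as description, separated 3 large regions. The body held 1375 cells (74.3%), 47.1% of them in main cluster 21, with 23.1% homeostatic and 13.9% Activated_2 neighbours. The left patch held 148 cells (8.00%), 93.9% of them in main cluster 21, and 45.6% of their neighbours were Activated_2. The upper strip held 129 cells (6.97%), of which 34.1% were in main cluster 9, and 89.7% of their neighbours were Activated_1. The other 198 cells (10.7%), lying in any smaller group or in none, were counted as scattered, with 52.2% homeostatic neighbours.

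The upper strip held 5.88%, 4.58% and 6.06% of Activated_1 cells after FL-NfL, 3.51%, 4.26% and 4.78% after CC-NfL, against 14.9%, 8.08%, 9.73% and 14.0% after vehicle. All 6 NfL libraries were below all 4 vehicle libraries. In the body and among the scattered cells the groups overlapped. The strip held 6 to 16 cells of each NfL library and 7 to 33 of each vehicle library. Since it was drawn from the map no test was made. Most main cluster 9 cells lie in the strip, so its values are not separate from those of main cluster 9. The left patch held 14.0%, 6.54% and 12.7% after FL-NfL, 9.36%, 7.09% and 7.46% after CC-NfL, against 8.51%, 6.06%, 7.08% and 4.66% after vehicle, with the groups overlapping.

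In every NfL library, Activated_1 cells had a higher percentage of Activated_2 neighbours than in any vehicle library. The mean percentage of Activated_2 among their 30 neighbours was 18.3%, 17.1% and 17.6% after FL-NfL, 19.1%, 18.9% and 18.2% after CC-NfL, against 13.7%, 13.0%, 15.2% and 13.5% after vehicle. All 6 NfL libraries lay above all 4 vehicle libraries and the spread within a group was small, with means of 17.7% ± 0.572 after FL-NfL (SD, n = 3), 18.7% ± 0.441 after CC-NfL (SD, n = 3) and 13.8% ± 0.940 after vehicle (SD, n = 4). The two-sided exact permutation p was 0.0286 for FL-NfL, 0.0286 for CC-NfL and 0.00476 for both, each the smallest its design allows. After adjustment over 12 tests (3 neighbour states and 4 contrasts) they were 0.114, 0.114 and 0.0571, none past 0.05. Within b1 the mean was 17.7% after FL-NfL and 19.0% after CC-NfL, against 13.4% after vehicle, and within b2 it was 17.6% after FL-NfL and 18.2% after CC-NfL, against 14.3% after vehicle. Of the 3 neighbour states, 33.3% had all NfL libraries above all vehicle libraries.

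Activated_2 cells were themselves more frequent in NfL libraries, so neighbours were also drawn from a fixed pool that excluded the cell's own library. With neighbours from vehicle libraries only, the mean was 19.4% for Activated_1 cells of NfL libraries and 14.5% for those of vehicle libraries, and with neighbours from NfL libraries only it was 19.1% and 15.1% for the same order of groups, with 6 of 6 NfL libraries above all vehicle libraries each time. Within the body of the state alone, with neighbours drawn from all microglia and not from a fixed pool, the groups overlapped. There the values were 10.9%, 12.3% and 12.4% after FL-NfL, 15.5%, 15.1% and 15.8% after CC-NfL, against 8.08%, 9.19%, 14.0% and 14.5% after vehicle. CC-NfL libraries were still the highest, and FL-NfL libraries lay between the vehicle libraries of the 2 batches. On the map of all cells, with neighbours again drawn from all microglia, CC-NfL library 3 (20.2%) lay below vehicle library 4 (20.5%).

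**Figure D5:**
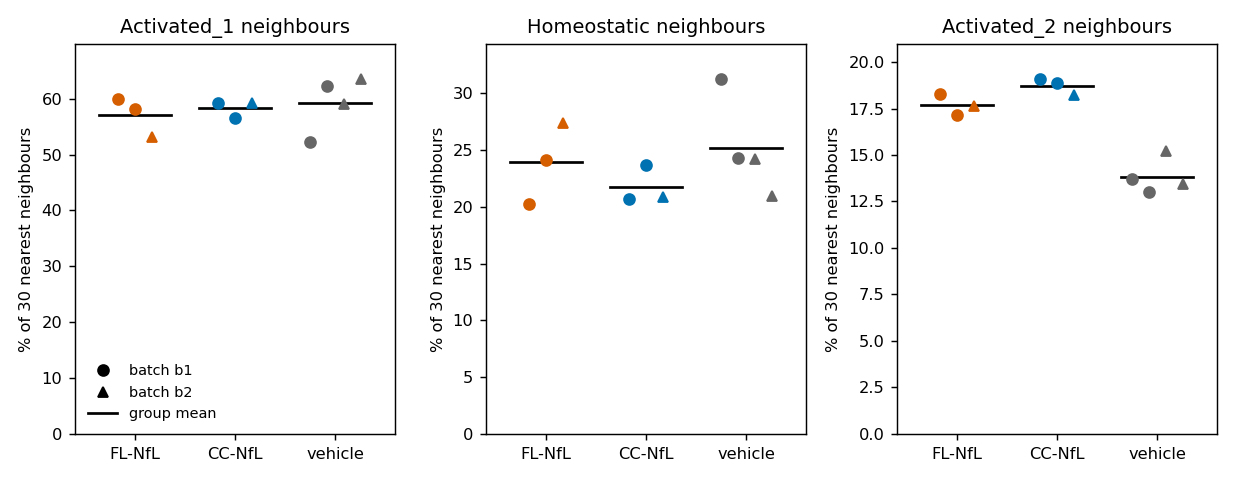
Mean percentage of Activated_1, homeostatic and Activated_2 cells (left to right) among the 30 nearest microglia of each Activated_1 cell, with 1 point per library, circles for batch b1, triangles for b2 and horizontal bars for group means. For Activated_2 neighbours, FL-NfL libraries ran from 17.1% to 18.3%, CC-NfL libraries from 18.2% to 19.1% and vehicle libraries from 13.0% to 15.2%, while the groups overlapped for the other states.

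On the map of microglia, own-state and homeostatic neighbours of Activated_1 cells did not pass. Own-state neighbours averaged 57.1% ± 3.54 after FL-NfL (SD, n = 3), 58.4% ± 1.53 after CC-NfL (SD, n = 3) and 59.3% ± 5.02 after vehicle (SD, n = 4). Homeostatic neighbours averaged 23.9% ± 3.60 after FL-NfL, 21.7% ± 1.71 after CC-NfL, against 25.2% ± 4.33 after vehicle, with the same numbers of libraries. For both NfL groups against vehicle the exact permutation p was 0.552 for own-state and 0.286 for homeostatic neighbours, before adjustment. On the map of all cells, an alternative that was not planned, NfL and vehicle libraries did not overlap for homeostatic neighbours. There they were 22.6% to 34.5% in NfL libraries and 35.3% to 41.6% in vehicle libraries.

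Within Activated_1, cells of libraries of the same group lay closer together than cells of libraries of different groups. Among the 30 nearest Activated_1 cells, the log2 of observed over expected neighbours from another library was on average 0.15 higher for libraries of the same group. A one-sided exact permutation of the groups within batch gave p = 0.00741 over 1080 groupings, the smallest possible being 0.000926. Leaving out each library in turn gave 0.09 to 0.19, the lowest without vehicle library 1, and exact permutation p-values of 0.00741 to 0.0222. For neighbours from a cell's own library the log2 of observed over expected was 0.28. In the other states the same measure was 0.01 for homeostatic (p = 0.0759), 0.19 for Activated_2 (p = 0.00370), 0.19 for Activated_3 (p = 0.0130) and 0.14 for proliferating cells (p = 0.0685), all by exact permutation and unadjusted, and whether Activated_1 differs from these was not tested.

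The share of Activated_1 among microglia was last set against other immune populations over the 10 libraries, as 4 relations. Correlations over the NfL libraries alone were not planned beforehand. Macrophages as a percentage of cells that are not microglia separated NfL from vehicle libraries (2.90% to 14.1%, against 1.58% to 2.53%), so no pooled value is given. Over the 6 NfL libraries Pearson's r was -0.35 (exact permutation p = 0.486, 0.564 after adjustment) and Spearman's rho -0.49 (exact permutation p = 0.356, 0.474 after adjustment), and r was -0.58 without the 2 libraries farthest from the median. Other immune cells fell into separate clusters of libraries, 1.60% to 2.28% in 5 of 6 NfL libraries and 0.372% to 0.681% in CC-NfL library 1 and the 4 vehicle libraries. Each cluster holds too few libraries for a correlation of its own, and over the 6 NfL libraries, which span both clusters, r was -0.34 (exact permutation p = 0.564, also after adjustment) and rho -0.26 (exact permutation p = 0.658).

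The activated part of macrophages separated NfL from vehicle libraries (39.9% to 80.1%, against 7.61% to 23.1%), so no pooled value is given. Over the 6 NfL libraries, a subset not planned beforehand, it ran against the Activated_1 share, with r = -0.88 and rho = -0.89 (exact permutation p = 0.0333 each, 0.133 after adjustment over 4 relations) and r = -0.95 without 2 libraries. The libraries with the highest activated part, FL-NfL 3 (70.9%) and CC-NfL 3 (80.1%), were both of b2. Over the 4 NfL libraries of b1 r was -0.93, too few libraries for a test, and b2 holds too few for a value of its own. The number of annotated cells separated the batches, and within the 6 libraries of b1 its r with the Activated_1 share was 0.37 (exact permutation p = 0.489) and its rho 0.37 (exact permutation p = 0.497), with r = 0.55 without 2 libraries.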

How the data were processed

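Droplet 3′ single-cell RNA libraries were made from mouse hippocampus, 10 in all, grouped by the labelled treatment (FL-NfL, CC-NfL or vehicle). Per the submitters' processing notes, Cell Ranger 6.0.1 and GRCm38 were used, with no role given. The deposited table lists, per barcode, the library, cell class, microglial state, cluster numbers and 2 pairs of t-SNE positions, which are deposited scores without a unit. How cells were filtered, clustered and named, and how doublets were treated, is not given in the sources used here. Barcodes without a cell class (36.3%) were left out.

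The library was the replicate, so p-values measure the spread between libraries. Cells were counted per library. With group and batch as terms, limma 3.58.1 in R 4.3.3 was fitted to log2 odds or log2 ratios of cells plus 0.5. Fits were separate for 5 states, 20 cell classes and states (those averaging 10 or more cells per library), and 10 pairs of states. Benjamini-Hochberg adjustment was made in each fit within each contrast, not over the 4 contrasts. The same held for the exact permutation test over the 5 states. In each fit the spread of an item was moderated towards that of the others, which come from the same counts. The ratios were not fitted without moderation. Single percentages were compared by exact permutation (scipy 1.17.1). Correlations over 10 libraries used 100000 resamples. Map neighbours were the 30 nearest cells, and map regions were found by density (radius 1, at least 10 cells). Only the large groups so found were kept as regions. Counting intervals are exact (Clopper-Pearson) 95% intervals. Scripts were tested on simulated data. UMIs per cell were not analysed here, so depth is given in cells. States, clusters and map positions all derive from the same expression values and are not independent measures, and whether treatment moved cells across state borders was not tested. The members, comparisons and alternatives were chosen with earlier results of these data known. The states named are all 5, with every main cluster holding at least 1% of Activated_1.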

Additional observations from a re-analysis of the deposited data

Results flagged for a closer look

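In 1 of 13 measures tested among the 4 vehicle libraries, a single library stood apart from the rest. Activated_1 made up 48.0% of the activated microglia of vehicle library 1, against 29.1% to 31.1% in the other vehicle libraries, and its gap to the nearest of them was 0.898 of the whole range (Dixon's 95% critical value 0.829). Chance sets apart about 1 in 20 such groups. The library had 47 Activated_1, 46 Activated_2 and 5 Activated_3 cells, the fewest microglia (939) of all 10 libraries.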

How the results depend on the processing

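Most results kept their direction and their side of the threshold, 530 of 576 values that answer a comparison and 288 of 304 others. Few main results had passed, so few had a call to lose, and these counts are no measure of how firm a call was. On the centred log ratio scale the share of microglia was -0.014 for FL-NfL, -0.010 for CC-NfL and -0.012 for both, and FL-NfL was -0.074 for cells outside main cluster 21. CC-NfL passed by exact permutation (4.00 points, adjusted p = 0.0476). The share of annotated cells for FL-NfL was -0.046 in the quasi-binomial model and -0.15 without the 3 libraries numbered 1. The ratio to Activated_2 passed in the quasi-binomial model for FL-NfL (-0.60) and CC-NfL (-0.72). For both NfL groups its call was lost in 13 of 16 settings. These included no batch term (-0.65), b1 alone (-0.79) and leaving out libraries numbered 1 (-0.60). The share of activated microglia passed in limma (-0.65). The causes were not tested.

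The replicate block gave a ratio to Activated_2 of -0.74 (adjusted p = 0.149), which ended that call and no other. Same-numbered libraries correlated at -0.31 to 0.55, over 0.1 in 6 of 9 pairs, so numbers were not taken as pairs, although 7 of 9 libraries correlated best with their own number, a hint from the data only.

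Without libraries numbered 1, the ratio to Activated_3 was 0.39 for FL-NfL, 0.13 for CC-NfL, 0.26 for FL-NfL minus CC-NfL and 0.26 for both, and the CC-NfL ratio to proliferating cells was 0.10 in b1. On the map of all cells, own-state neighbours were 3.37 points for FL-NfL, 4.66 for CC-NfL and 4.01 for both, and FL-NfL minus CC-NfL was -3.06 for homeostatic and 2.91 for Activated_2 neighbours (0.195 from vehicle libraries only). Over NfL libraries r was -0.35 for macrophages, -0.34 for other immune cells and -0.88 for activated macrophages, and 0.37 for annotated cells in b1.

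Leaving out each library in turn, with FL-NfL minus CC-NfL first, gave -0.49 to 0.026 for the share of microglia, -0.66 to 0.13 for annotated cells, -0.038 to 0.18 and -0.50 to 0.24 for the ratios to Activated_2 and Activated_3, and -2.34 to 2.89 points for activated microglia. For main clusters 21, 1, 30 and 9 it gave -0.185 to 11.3, -10.5 to 1.43, -2.99 to 0.915 and -0.211 to 0.633 points, and for own-state neighbours -2.70 to 0.698. Against vehicle the annotated share ran from -0.19 to 0.82 for FL-NfL and -0.031 to 0.75 for both. The ratio to Activated_2 ran from -0.84 to -0.59 for both. The ratio to Activated_3 ran from -1.12 to 0.088 for FL-NfL, -0.93 to 0.28 for CC-NfL and -1.02 to 0.18 for both, and that of CC-NfL to proliferating cells from -0.22 to 0.22. Own-state neighbours ran from -3.23 to 0.498 points for CC-NfL and homeostatic neighbours from -2.99 to 0.765 for FL-NfL. Vehicle library 1 held the fewest Activated_1 cells (47).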
